A study of Mus musculus with 246 samples.

Results

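The response of the anterior cingulate cortex (ACC) to a social encounter was compared between control mice and mice raised under early life adversity (ELA). The comparison used 27 of the 246 libraries of the series, chosen by their labels as the ACC libraries of the conditions Ctrl_Vehicle and ELA_Vehicle (Ctrl_Veh and ELA_Veh below), taken either without or after a social interaction. Each library holds poly-A RNA from the ACC of 1 mouse, punched from both hemispheres and pooled. The quantity described is an interaction on the log2 scale, the change with social interaction in ELA_Veh minus the same change in Ctrl_Veh. A positive value means that a transcript moved upward more, or downward less, in ELA_Veh than in Ctrl_Veh, and a negative value the opposite.

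The mice were male wild-type CD1 offspring, an outbred stock, and were adult when taken. ELA was limited bedding and nesting material for dam and pups from postnatal day 2 to postnatal day 9, and Ctrl_Veh litters had standard material. The dams of both conditions received 1 subcutaneous injection of a vehicle gel at the start of that period, so every library here carries the vehicle, and no mouse here was exposed to the FKBP51 inhibitor SAFit2. Mice of the interaction groups had 10 min of social interaction. There were 7 Ctrl_Veh and 7 ELA_Veh mice without interaction, and 6 Ctrl_Veh and 7 ELA_Veh mice after it. Different mice were taken without and after interaction, so no mouse was its own control. The labels give no litter, and the p-values measure the spread between these mice, some of which may share a litter.

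The ACC is a midline cortical area that takes part in the evaluation of social and emotional events. Neurons that fire strongly switch on immediate early genes within minutes, such as Fos, Egr1 and Arc, and stress hormones acting through the glucocorticoid receptor switch on Fkbp5, Tsc22d3 and Per1. Beside these inducible genes, every cell carries large and steady pools of transcripts for ribosomes, mitochondria and proteasomes, while receptors, channels and adhesion proteins set how neurons signal and connect.

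Total counts of the 27 libraries lay between 20804247 and 35473484, with a median of 27727245. The ELA_Veh mice after interaction had the lowest median depth (24557681). All 14 markers of cortical excitatory neurons passed the filter on low counts and made up between 0.569% and 0.841% of the counts of each library. Of the choroid plexus markers, Ttr, Folr1, Otx2 and Slc4a5 lay below the filter. Libraries are named by the mouse number of their label. Mouse 89 (Ctrl_Veh after interaction) and mouse 69 (ELA_Veh without interaction) stood apart from the others: the level of a gene relative to the other libraries fell with its exonic length by 0.309 on the log2 scale per doubling of length in mouse 89 and by 0.122 in mouse 69, while the slopes of the other 25 libraries lay between -0.00496 and 0.0444. Mouse 61 (ELA_Veh after interaction) had the largest share of striatal markers, 0.212%, followed by mouse 37 (ELA_Veh without interaction), 0.143%. The summed share of olfactory bulb and migrating neuroblast genes was also highest in mouse 61 (0.0514%), followed by mouse 81 (0.0491%) and mouse 65 (0.0465%), both Ctrl_Veh without interaction, and mouse 93 (0.0449%; ELA_Veh after interaction), and single genes of that list such as Eomes were highest in mice 81 and 93. Values are therefore given with all 27 libraries and, where a result rests on them, without these mice.

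No gene passed an adjusted p of 0.05 for the interaction. Among 15326 protein-coding genes tested with edgeR's quasi-likelihood test, the smallest adjusted p was 0.624, and DESeq2 also called 0, with a smallest adjusted p of 0.138 for Mvd. At an unadjusted p under 0.05, 1082 genes (7.06% of those tested) passed in edgeR and 1149 (7.5%) in DESeq2, where 503 were higher (3.28%) and 646 lower (4.22%). In edgeR, 482 were higher (3.14%) and 600 were lower (3.91%). All that follows describes these unadjusted differences and the direction of the gene lists, and each share is to be read beside these background shares. Over all genes tested the median interaction was -0.01. Each p below is the unadjusted p of edgeR's fit across all genes unless it is called adjusted.

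Without mice 89 and 69 the number at an unadjusted p under 0.05 was 543, with 269 higher (1.76%) and 274 lower (1.79%), or 3.54% of all genes in total. Leaving out mouse 89 alone gave 676 genes (4.41%; 2.01% higher and 2.4% lower) and mouse 69 alone 684 (4.46%; 1.98% and 2.48%). The voom fit of limma, which gives each library a weight by its quality, gave 476 higher (3.11%) and 445 lower (2.9%), together 6.01%. Of the 482 genes higher with all libraries, 197 were also higher without both mice and 0 changed sign. Of the 600 lower genes, 222 were also lower and 1 changed sign.

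The interaction is the difference of 2 responses, and genes chosen for a large difference between them will mostly have responses of opposite sign, so the signs are given as a description only. Over all 15326 genes, 4084 had a response below 0 in Ctrl_Veh and above 0 in ELA_Veh, and 4090 the reverse. Among the 482 higher genes, 449 had a response below 0 in Ctrl_Veh and above 0 in ELA_Veh. Among the 600 lower genes, 576 had a response above 0 in Ctrl_Veh and below 0 in ELA_Veh. Taken singly, the responses passed an unadjusted p of 0.05 in 140 of the higher genes in Ctrl_Veh and 185 in ELA_Veh, and 255 and 164 of the lower genes. Over all genes, the social response alone gave 1481 genes in Ctrl_Veh (968 higher and 513 lower, 9.66% in all, of which 6.32% higher and 3.35% lower) and 1344 in ELA_Veh (789 higher and 555 lower, 8.77% in all, of which 5.15% higher and 3.62% lower), with 0 at an adjusted p under 0.05 in edgeR in either condition and 18 and 14 in DESeq2. The difference between ELA_Veh and Ctrl_Veh gave 1299 genes (8.48%) after the interaction, of which 449 were higher (2.93%) and 850 lower (5.55%) in ELA_Veh, and without it 464 genes (3.03%), 243 higher (1.59%) and 221 lower (1.44%). These contrasts share libraries with the interaction and with each other.

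**Figure D1:**
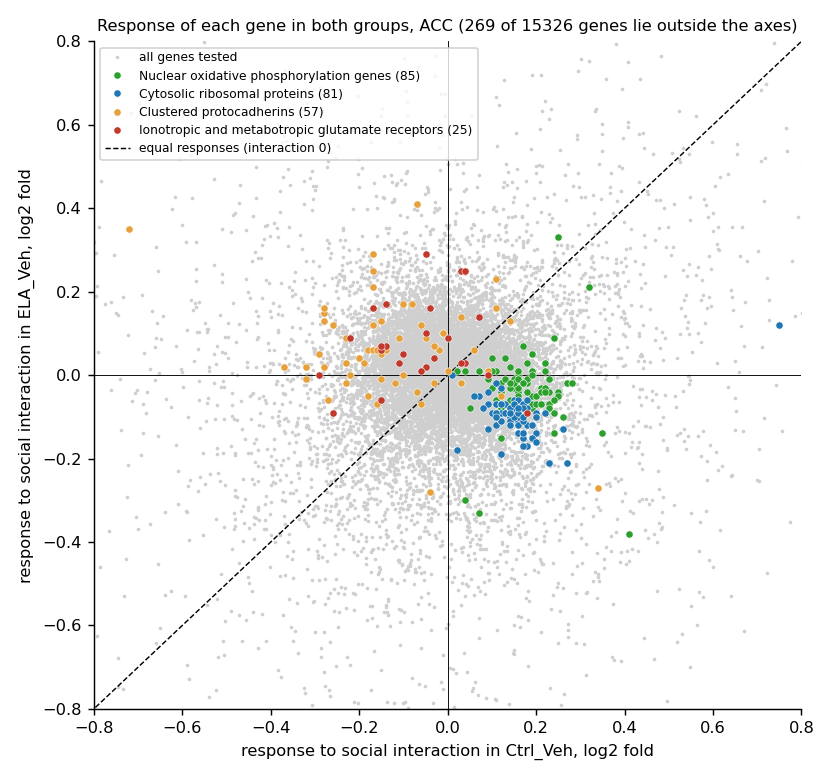
Response of each gene to social interaction in Ctrl_Veh (horizontal axis) and in ELA_Veh (vertical axis), as log2 fold changes of edgeR, with all 15326 tested genes in grey, 4 gene lists in colour and the line of equal responses dashed. The axes end at 0.8 on either side, 269 genes and 0 of the coloured list members lie outside them, and all 81 ribosomal and 84 of the 85 oxidative phosphorylation genes lie below the dashed line with Ctrl_Veh responses above 0, while most protocadherins and glutamate receptors lie above it.

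Of the 76 gene lists, that of the cytosolic ribosome held the most lower genes. All 81 tested ribosomal protein genes had an interaction below 0, with a median of -0.24, and 38 of them were lower and 0 higher at an unadjusted p under 0.05, beside a background of 3.91% lower. In Ctrl_Veh 15 of the 81 were higher after social interaction (background 6.32%; median response 0.15), and in ELA_Veh 0 were higher and 0 were lower, at a median response of -0.09. After interaction, 42 of the 81 were lower in ELA_Veh than in Ctrl_Veh (background 5.55%; median -0.18). Ribosomal protein genes have many processed pseudogenes, and how reads shared with these copies were assigned makes single members uncertain.

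The member with the largest log2 difference among those named was Rps21, a protein of the small ribosomal subunit. Its level was 60, 63.3 and 65.6 CPM (counts scaled to library size; lowest, median and highest) in Ctrl_Veh without interaction and 62.3, 64.5 and 121 after it. In ELA_Veh it was 60.3, 66.8 and 80.5 CPM without interaction and 55.3, 57.2 and 66.4 after it. The groups overlapped in both conditions, the value of 121 was mouse 89 and the value of 80.5 mouse 69, and most ELA_Veh mice after interaction lay below the other groups. The interaction was -0.44 ± 0.15 (SE, p of 0.00823), and without the 2 mice it was -0.19 (p of 0.00324).

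Rps14, also of the small subunit, was the ribosomal gene whose ELA_Veh groups did not overlap, at 121, 124 and 158 CPM without interaction and a median of 115 and a highest value of 120 after it. In Ctrl_Veh the median was 119 CPM without interaction, with a highest value of 126, and after it the values ran from 115 to 202, with overlap. Its interaction was -0.35 (p of 0.00935) and -0.15 without mice 89 and 69 (p of 0.00365). Over all 15326 genes, the ELA_Veh groups did not overlap for 36 genes that were higher and 5 that were lower after interaction.

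The other named ribosomal genes had differences of similar size. Rpl36a, Rpl13a, Rps28, Rps4x, Rpl37 and Rpl41, which encode proteins of both subunits, had interactions between -0.40 and -0.29, with p between 0.00771 and 0.0152. With mice 89 and 69 left out they lay between -0.19 and -0.13, and each kept an unadjusted p under 0.05. Across the list, 14 of 81 were lower without these mice, with a median of -0.07. Leaving out 1 mouse gave 22 lower without mouse 89, 17 without mouse 69 and 63 without another Ctrl_Veh mouse after interaction.

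Transcripts of ribosomal proteins are known for a run of pyrimidines at their first bases, through which their translation is controlled as a group. The promoters of 61 of the 81 genes were in the RefSeq table, and 32 of them (52.5%) held a run of at least 8 C or T in a row on the sense strand within 25 bases of the annotated start. The share was 23% over all tested genes with a promoter there, 22.8% in the lower genes and 24.7% in the higher genes, and 16.2% in nuclear genes of oxidative phosphorylation. To let the runs be seen side by side, 4 ribosomal genes that held such a run are shown. They had the smallest interaction p among such genes outside the chromosome that carries Rps14, as genes of that chromosome were left aside. Each is given as 50 bases centred on the start in the GRCm38.p6 assembly of RefSeq, 5′ to 3′ on the sense strand, with the run in capitals. They are from Rpl13a (chr7:45128721-45128770, minus strand), Rpl18 (chr7:45718046-45718095, plus strand), Rpl7a (chr2:26910782-26910831, plus strand) and Rps24 (chr14:24490653-24490702, plus strand).
Rpl13a: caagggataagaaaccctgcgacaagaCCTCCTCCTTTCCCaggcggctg
Rpl18: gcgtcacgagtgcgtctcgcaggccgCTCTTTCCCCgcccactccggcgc
Rpl7a: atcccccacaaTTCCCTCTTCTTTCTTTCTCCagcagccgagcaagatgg
Rps24: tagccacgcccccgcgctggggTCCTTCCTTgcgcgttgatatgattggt
The runs are 14, 10, 21 and 9 bases long and cover the annotated start or begin within a few bases of it in each. Rpl13a is a protein of the large subunit, and its level was 202, 221 and 247 CPM in ELA_Veh without interaction and 176, 195 and 231 after it.

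The summed counts of the ribosomal protein genes show where the list's difference lay among the mice. They made up 0.857%, 0.888% and 0.933% of the counts (lowest, median, highest) in Ctrl_Veh without interaction and 0.853%, 0.902% and 1.49% after it, the 1.49% being mouse 89 and the next library 0.917%. In ELA_Veh they made up 0.849%, 0.924% and 1.14% without interaction, the 1.14% being mouse 69 and the next 0.986%, and 0.836%, 0.849% and 0.97% after it, the 0.97% being mouse 61 and the next 0.865%. Apart from these 3 mice the Ctrl_Veh groups overlapped throughout. The 6 ELA_Veh mice after interaction other than mouse 61 lay between 0.836% and 0.865%, and of those without interaction 1 lay in that range (0.849%) and the others at 0.866% or above. Mouse 89 was the highest Ctrl_Veh library after interaction for 81 of 81 ribosomal genes, and the highest of all 27 libraries for 80. Mouse 69 was the highest ELA_Veh library without interaction for 77.

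Nuclear genes of oxidative phosphorylation, the subunits of the respiratory chain and ATP synthase, held the next most. Of 85 tested, 17 were lower and 0 were higher in the interaction (median -0.20; background 3.91% lower). In Ctrl_Veh 35 were higher after interaction (median response 0.17; background 6.32%), while the median response in ELA_Veh was -0.04. Mouse 89 was the highest Ctrl_Veh library after interaction for 82 of the 85. Uqcr11, a small subunit of complex III, was 57.9, 59.8 and 62.1 CPM in Ctrl_Veh without interaction and 59.3, 64.2 and 115 after it. In ELA_Veh it was 62.1, 64.1 and 75.1 CPM without interaction and 55.9, 59.6 and 66.6 after it. Both pairs of groups overlapped, with mice 89 and 69 at the top, and the interaction was -0.36 ± 0.14 (SE, p of 0.0175), or -0.14 without these mice (p of 0.0142).

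Ndufs5, Ndufv3, Ndufa4, Ndufa7, Ndufc2, Cox4i1 and Cox6a1, which encode subunits of complex I and cytochrome c oxidase, had interactions between -0.33 and -0.26. Leaving out mice 89 and 69 moved them to between -0.12 and -0.09, and Ndufs5, Ndufa4, Cox4i1 and Ndufc2 kept an unadjusted p under 0.05. In the whole list 5 of 85 were then lower, at a median of -0.02. With 1 mouse left out, 8 were lower without mouse 89, 5 without mouse 69, 11 without mouse 59 or mouse 93 (ELA_Veh after interaction), 27 without mouse 17 (Ctrl_Veh after interaction) and 28 without another mouse of that group. The share of counts was 0.787%, 0.805% and 1.28% in Ctrl_Veh after interaction, and without mouse 89 the highest was 0.815%, beside 0.767%, 0.795% and 0.819% without interaction.

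**Figure D2:**
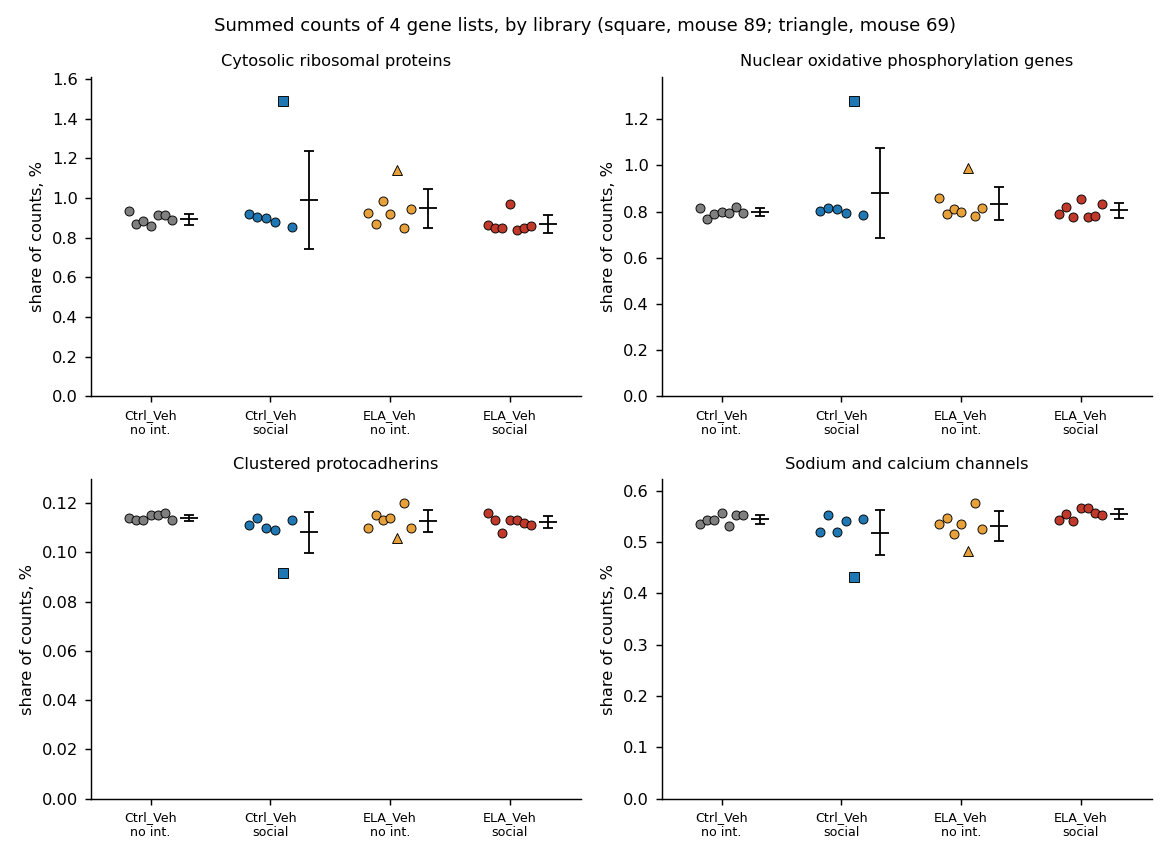
Summed counts of 4 gene lists as a percentage of all counts in each library (vertical axis, from 0) for the 4 groups of ACC libraries, with 1 point per mouse (square, mouse 89; triangle, mouse 69) and the mean ± SD of each group beside it. Ribosomal protein genes reach 1.49% in mouse 89 and 1.14% in mouse 69, and sodium and calcium channels are lowest, at 0.432%, in mouse 89.

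Transcripts of the 13 tested genes on the mitochondrial genome had a smaller median, -0.08, with 3 lower (23.1%, beside 3.91% of all genes) and 0 higher. The lower ones were mt-Nd3 (-0.46, p of 0.0141), mt-Co3 (-0.26, p of 0.0186) and mt-Atp6 (-0.42, p of 0.024), which encode subunits of complex I, cytochrome c oxidase and ATP synthase. Of these mt-Co3 was 2350, 2840 and 2990 CPM in ELA_Veh without interaction and 2210, 2420 and 2840 after it, with overlap. Leaving out mice 89 and 69 gave a median of -0.10 over the 13, with 1 lower. With each library's trend over exonic length taken out, the median turned to 0.05.

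Further genes of the protein and energy machinery pointed the same way with smaller shares. Of 78 mitochondrial ribosomal proteins 7 were lower and 0 higher (median -0.15, and -0.03 without mice 89 and 69). Of 48 proteasome subunits 8 were lower and 0 higher (median -0.16, and -0.03 without both mice, with 1 lower). Psme2, a subunit of the interferon-inducible proteasome activator, had the smallest p of these (-0.26, p of 0.0143, and -0.16 without the 2 mice, p of 0.044), and Psma5, Psmb1, Psmb3, Psmb5, Psmc5, Psmd7 and Psmd13 lay between -0.28 and -0.17. Glycolysis and TCA cycle genes (33 tested, 1 lower, median -0.12), histones (26 tested, 0 called, median -0.13), translation initiation and elongation factors (68 tested, 2 lower, median -0.06) and ubiquitin E2 enzymes (30 tested, 0 called, median -0.02) were near or below the background of 3.91%. The lower members were Pfkl (-0.15), a phosphofructokinase, and Eif3k (-0.26) and Eif6 (-0.28), both chosen for mention after their values were seen, as are all genes given in the following paragraphs only as the called members of a list.

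**Figure D3:**
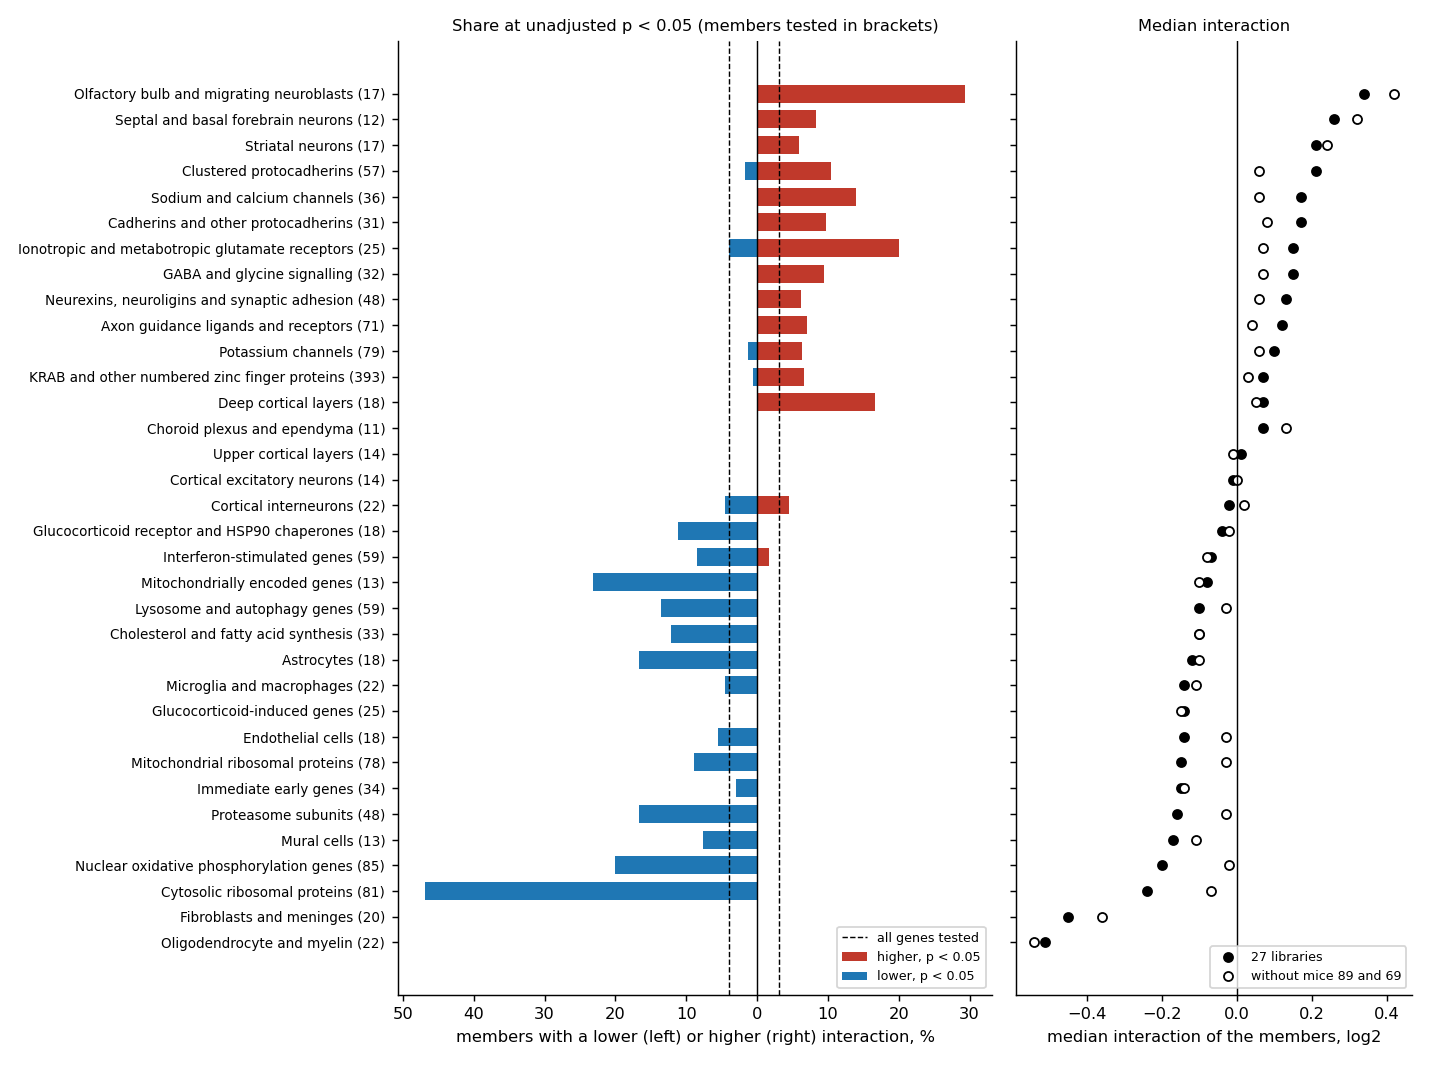
Left, share of the tested members of the most relevant gene lists with a lower (blue) or higher (red) interaction at an unadjusted p under 0.05, with the shares over all genes tested dashed. Right, median log2 interaction of each list with all 27 libraries (filled) and without mice 89 and 69 (open): the open points lie nearer to 0 for cytosolic ribosomal proteins (-0.24 and -0.07), nuclear oxidative phosphorylation genes (-0.20 and -0.02) and proteasome subunits (-0.16 and -0.03), while the myelin list is at -0.51 and -0.54.

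Genes of lysosomes and autophagy included 8 lower (13.6%, beside 3.91% of all genes) and 0 higher of 59 (median -0.10, and -0.03 with 5 lower without mice 89 and 69). Ctsd, the lysosomal protease cathepsin D, was 253, 282 and 352 CPM in Ctrl_Veh after interaction and 243, 255 and 262 without it, and in ELA_Veh it was 234, 253 and 271 after interaction and 247, 268 and 296 without it. The groups overlapped in both conditions, with an interaction of -0.26 ± 0.08 (SE, p of 0.00216). Npc2, which moves cholesterol out of lysosomes, had an interaction of -0.37 (p of 0.00149), and Abcd4, a lysosomal transporter of vitamin B12, -0.29 (p of 0.0015). With mice 89 and 69 left out the 3 values were -0.17, -0.30 and -0.31, each at an unadjusted p under 0.05. Atp6v0c, Atp6v1e1 and Atp6v1f, parts of the lysosomal proton pump, were among the other lower members.

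The gene with the smallest p of all was Mvd, which encodes mevalonate diphosphate decarboxylase of cholesterol synthesis. Its level was 11.8, 14.1 and 14.4 CPM in Ctrl_Veh without interaction and 14.5, 15.8 and 20.6 after it. In ELA_Veh it was 14.3, 15.7 and 16.2 CPM without interaction and 11.4, 14 and 14.6 after it. The Ctrl_Veh groups did not overlap, and the ELA_Veh groups lay in the opposite order with a small overlap. Over all 15326 genes, the Ctrl_Veh groups did not overlap for 56 genes that were higher and 25 that were lower after interaction. The response of Mvd was 0.27 in Ctrl_Veh and -0.18 in ELA_Veh, and the interaction -0.45 ± 0.10 (SE, p of 7.77e-05), with an adjusted p of 0.624 in edgeR. Without mice 89 and 69 it was -0.36 (p of 0.00011), and in the PFC of the same mice -0.04 (p of 0.718).

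Of the 33 genes of cholesterol and fatty acid synthesis, 4 were lower (12.1%, beside 3.91% of all genes) and 0 higher, at a median of -0.10 that was also -0.10 without mice 89 and 69. The other 3 lower members were Fdps (-0.25), Msmo1 (-0.22) and Nsdhl (-0.15), enzymes of the same pathway. In Ctrl_Veh 9 of the 33 were higher after interaction (median 0.08; background 6.32%). In ELA_Veh 1 was higher and 2 were lower (median 0.01; backgrounds 5.15% and 3.62%).

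The remaining lower genes with the smallest p had varied functions. Serpinb6a, an inhibitor of serine proteases, was 19.9, 20.2 and 21.5 CPM without and 20.1, 23.1 and 29.8 after interaction in Ctrl_Veh, and 21.3, 23.6 and 24.3 without and 19.4, 21.6 and 23.8 after it in ELA_Veh (interaction -0.35 ± 0.09, SE, p of 0.000448). Arhgdia, which holds a family of small GTPases inactive, did not overlap between the Ctrl_Veh groups (252, 262 and 265 CPM without and 271, 281 and 345 after interaction) and had an interaction of -0.22 (p of 0.00163). Rab3b, a GTPase of synaptic vesicles, was 51.8, 55.8 and 60.7 CPM in Ctrl_Veh and 40.8, 44.6 and 48.6 in ELA_Veh after interaction, without overlap, at -0.38 (p of 0.00304). Over all genes, the ELA_Veh mice after interaction lay wholly below the Ctrl_Veh mice after interaction for 13 genes and wholly above for 3.

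Csad, an enzyme of taurine synthesis, had an interaction of -0.35 (p of 0.000866), Nudt1, which clears oxidised nucleotides, -0.70 (p of 0.000649), and Arpc1b, a subunit of the Arp2/3 complex that nucleates actin, -0.47 (p of 0.00221). Plrg1, a splicing factor, was at -0.24 (p of 0.0026), Mrnip, which takes part in DNA repair, at -0.38 (p of 0.00199) and Pdrg1 at -0.36 (p of 0.000797). BC028528 (-0.87, p of 0.000593) and Gm10638 (-0.90, p of 0.00313) were near 1 CPM. Each of the 15 kept an unadjusted p under 0.05 without mice 89 and 69 and when any single mouse was left out. They were picked by their p in these libraries, most of which each refit shares, so this was no independent check.

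**Figure D4:**
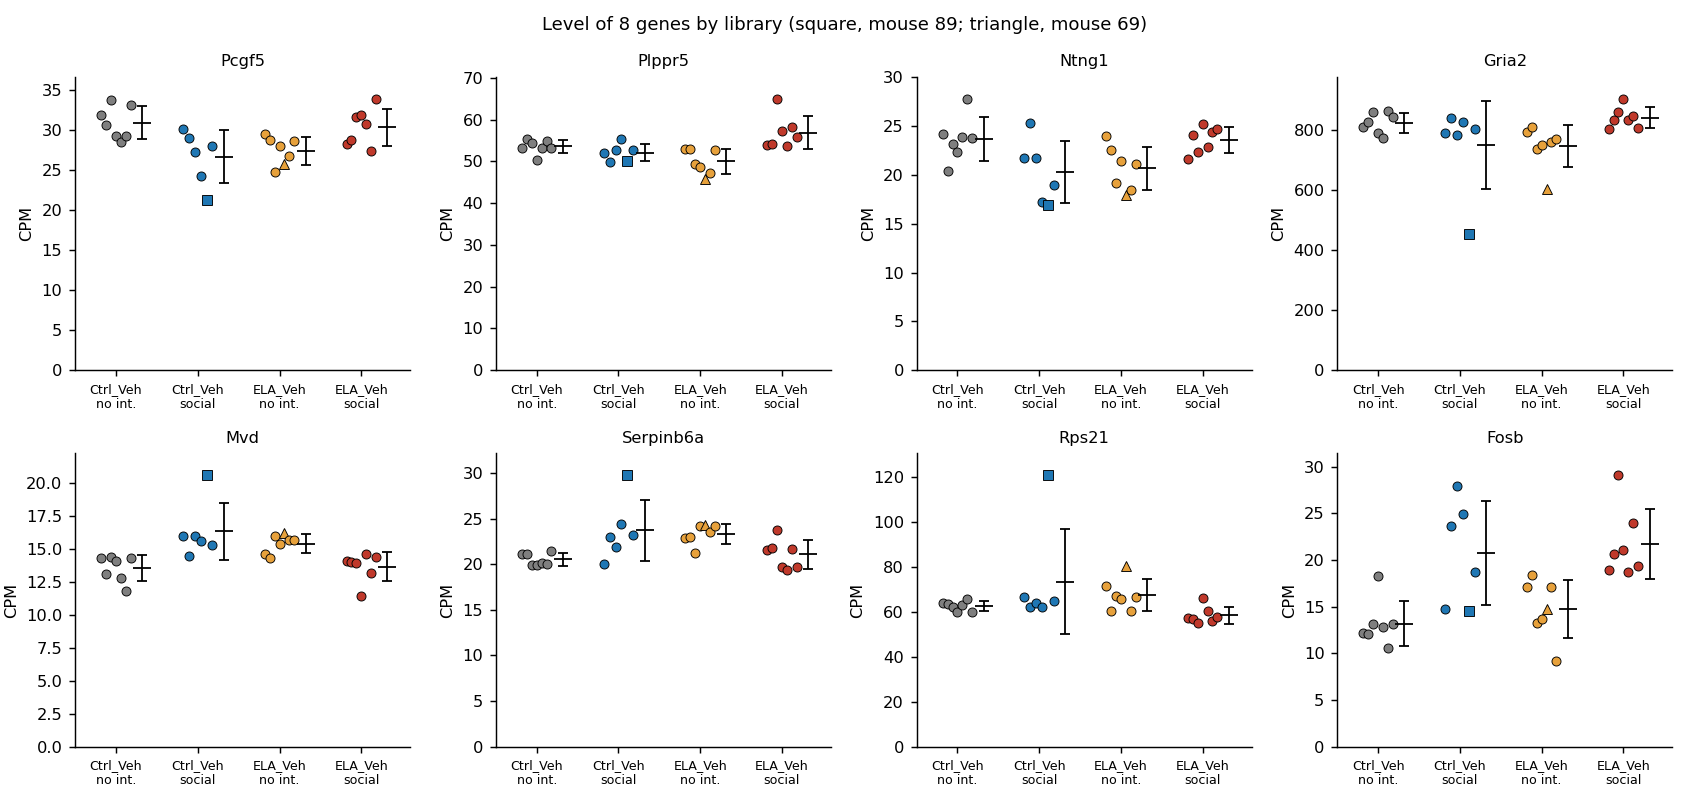
Level of 8 genes in CPM (vertical axis, from 0) in each library of the 4 groups, with 1 point per mouse (square, mouse 89; triangle, mouse 69) and the mean ± SD of each group beside it. Mvd is higher after interaction in Ctrl_Veh and lower in ELA_Veh, Plppr5 is higher after interaction in all 7 ELA_Veh mice than in the 7 without it, and Fosb is higher after interaction in both conditions.

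Lists of neuronal surface proteins had medians above 0. Ionotropic and metabotropic glutamate receptors had 5 higher and 1 lower of 25 (median 0.15), beside a background of 3.14% higher. Gria2, the AMPA receptor subunit that limits calcium entry, was 771, 825 and 861 CPM in Ctrl_Veh without interaction and 454, 795 and 839 after it, and 601, 760 and 810 in ELA_Veh without interaction and 802, 833 and 902 after it. The groups overlapped in both conditions, and 5 of the 7 ELA_Veh mice after interaction lay above every ELA_Veh mouse without it. The interaction was 0.31 ± 0.13 (SE, p of 0.0216), and 0.15 without mice 89 and 69 (p of 0.00239).

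Grin3a and Grin2d, NMDA receptor subunits, were at 0.29 and 0.20, the kainate receptor subunit Grik2 at 0.30 and the metabotropic receptor Grm7 at 0.22, with p between 0.0316 and 0.0417. None of these 4 kept an unadjusted p under 0.05 without mice 89 and 69, at 0.13 to 0.17. Grik4, another kainate receptor subunit, was lower (-0.27, p of 0.0264, and -0.29 without both mice, p of 0.0241). After interaction its Ctrl_Veh mice (40.9, 43.6 and 46.5 CPM) lay wholly above its ELA_Veh mice (23.6, 38.6 and 39.3 CPM).

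Ion channels and inhibitory receptors pointed the same way. Of 36 sodium and calcium channel genes 5 were higher (13.9%, beside 3.14% of all genes) and 0 lower (median 0.17, and 0.06 without mice 89 and 69): Cacnb4 (0.32), Cacna1h (0.29), Cacna1i (0.27), Cacng8 (0.15) and Scn2b (0.14). Of 79 potassium channel genes 5 were higher, among them Kcnt2 (0.32), Kcnq5 (0.29), Kcnd2 (0.22) and Kcnc1 (0.19), and Kcnj8 (-0.58), which belongs to mural cells of vessels, was lower (median 0.10). Together 7.59% of this list was called, beside 7.06% of all genes. The 32 tested genes of GABA and glycine signalling had a median of 0.15. In ELA_Veh 12 of the potassium channel genes were higher after interaction (background 5.15%) and 1 was lower. In Ctrl_Veh 3 of them were higher and 4 lower (backgrounds 6.32% and 3.35%).

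Adhesion and guidance genes, which specify contacts between neurons, had medians above 0. Clustered protocadherins had 6 higher and 1 lower of 57 (median 0.21), or 10.5% and 1.75% beside 3.14% and 3.91% of all genes. Pcdhb6 (0.47), Pcdhga1 (0.43), Pcdhga3 (0.41), Pcdhb10 (0.34), Pcdhga10 (0.31) and Pcdhb9 (0.24) were higher and Pcdhgc4 (-0.61) was lower. The isoforms of the gamma cluster share constant exons and those of a cluster are alike in sequence, so single members are uncertain. In Ctrl_Veh 8 of the 57 were lower after interaction and 0 higher (median -0.15; background 3.35% lower), and in ELA_Veh 1 was higher (median 0.06). Without mice 89 and 69 the median interaction was 0.06 and 1 member was higher.

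Of 31 cadherins and other protocadherins 3 were higher, Pcdh11x (0.50, p of 0.00157), Cdh8 (0.41) and Pcdh10 (0.27), with a median of 0.17. Of 71 axon guidance genes 5 were higher, Ntng1, Plxna3 (0.26), Ntng2 (0.21), Epha7 (0.20) and Epha5 (0.20), with a median of 0.12. Of 48 neurexin, neuroligin and other synaptic adhesion genes 3 were higher, Tenm2 (0.40), Slitrk4 (0.39) and Slitrk3 (0.28), with a median of 0.13. None of these lists had a lower member. Their called shares were 9.68%, 7.04% and 6.25%, beside 7.06% of all genes, of which 3.14% were higher. Without mice 89 and 69 the medians of the 3 lists were 0.08, 0.04 and 0.06, with 2, 1 and 1 higher, and that of cadherins was 0.06 with the trend over exonic length taken out. For glutamate receptors, GABA and glycine genes and potassium channels the medians without both mice were 0.07, 0.07 and 0.06.

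Ntng1, which encodes the presynaptic adhesion protein netrin-G1, was 20.4, 23.8 and 27.8 CPM in Ctrl_Veh without interaction and 16.9, 20.3 and 25.3 after it. In ELA_Veh it was 18, 21.1 and 24 CPM without interaction and 21.6, 24.1 and 25.2 after it. The order of the medians was opposite in the 2 conditions, with overlap in each, and the interaction was 0.42 ± 0.12 (SE, p of 0.00127), or 0.33 without mice 89 and 69 (p of 0.00539).

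Plppr5, a lipid phosphatase-related membrane protein of growing neurites, did not overlap between the ELA_Veh groups, at 45.7, 49.4 and 53.1 CPM without interaction and 53.6, 55.8 and 65 after it. In Ctrl_Veh it was 50.4, 53.3 and 55.4 CPM without and 49.8, 52.4 and 55.5 after interaction. Its interaction was 0.23 ± 0.06 (SE, p of 0.00109), and 0.19 without mice 89 and 69 (p of 0.00241).

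Some genes of chromatin were among the 15 higher genes with the smallest p. The chromatin lists varied: 6.15% of 65 histone acetylases, deacetylases and methylases and 11.8% of 17 DNA methylation genes were called, beside 7.06% of all genes. Of 26 histones and 52 homeobox genes 0 were called. Pcgf5, a subunit of Polycomb repressive complex 1, was 28.5, 30.6 and 33.8 CPM without and 21.3, 27.6 and 30.1 after interaction in Ctrl_Veh, and 24.7, 28 and 29.5 without and 27.4, 30.7 and 33.9 after it in ELA_Veh. The responses were -0.21 and 0.15, with overlap in each condition, and the interaction of 0.36 ± 0.09 (SE, p of 0.000716) had the smallest p of the higher genes. Suz12, a subunit of Polycomb repressive complex 2, was at 0.25 (p of 0.00341) and Jade1, a scaffold of a histone acetylase, at 0.25 (p of 0.00344). Of 393 KRAB and other numbered zinc finger genes 26 were higher (6.62%) and 2 lower (0.509%), at a median of 0.07. Together 7.12% were called, beside 7.06% of all genes (3.14% higher and 3.91% lower). Without mice 89 and 69, 13 were higher and 2 lower. These genes form families of similar sequence, which makes single members uncertain.

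The other higher genes with the smallest p were Zc3h11a (1.13 ± 0.32, SE, p of 0.00164), whose counts are uncertain because Zbed6 lies within it, Mtmr7 (0.21, p of 0.00153), a lipid phosphatase, and Itga4 (0.75, p of 0.00308), an integrin subunit. Zc3h11a spanned a wide range, from 28.7 to 70.6 CPM in Ctrl_Veh without interaction and from 17.2 to 43.5 after it, and from 29.1 to 63.8 and from 41.9 to 75.3 in ELA_Veh. Trhr2 (0.69, p of 0.00272), a receptor of thyrotropin-releasing hormone, Ifi203 (0.72, p of 0.00157), an interferon-inducible gene, and Ulbp1 (1.43, p of 0.00207), a ligand of the NKG2D receptor of natural killer cells, reached at most 3.9 CPM in any library. Spag6l (0.40, p of 0.00337), of cilia, and Ppl (0.92, p of 0.00343), which encodes periplakin, completed the list with Ms4a15, described with the olfactory genes. Each of these kept an unadjusted p under 0.05 without mice 89 and 69, in a fit that shares most of the libraries they were picked from.

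Immediate early genes, the usual record of recent neuronal firing, had few calls in the interaction. Of 34 tested, 1 was lower (Amigo3, -0.56) and 0 were higher, at a median of -0.15, with 26 below 0. Without mouse 5 (ELA_Veh without interaction) the median was -0.02. After interaction 9 were higher and 0 lower in Ctrl_Veh (median response 0.23; background 6.32% higher). In ELA_Veh 6 were higher and 1 lower (median 0.10; background 5.15% higher). Fosb, an AP-1 subunit, was 10.6, 12.8 and 18.3 CPM without and 14.5, 21.2 and 27.9 after interaction in Ctrl_Veh, and 9.14, 14.7 and 18.4 without and 18.7, 20.7 and 29.1 after it in ELA_Veh. All ELA_Veh mice after interaction lay above all those without it, the Ctrl_Veh groups overlapped, and the interaction was -0.10 ± 0.22 (SE, p of 0.653).

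Fos (-0.18 ± 0.58), Junb (-0.10 ± 0.34), Egr1 (-0.08 ± 0.31), Arc (-0.17 ± 0.60), Npas4 (0.12 ± 0.46), Nr4a1 (-0.17 ± 0.32), Dusp1 (-0.15 ± 0.39) and Bdnf (-0.12 ± 0.17), with SE, had p between 0.487 and 0.803. Their levels varied widely within groups: Arc lay between 30.7 and 175 CPM in Ctrl_Veh mice without interaction alone, and between 37.8 and 283 in ELA_Veh mice without it. Differences of the size of these SE were not detectable with this number of mice. MAPK phosphatases and feedback inhibitors (18 tested; Dusp10 lower, -0.44; median 0.04) and delayed effectors and neurotrophins (23 tested, median -0.01) also stayed near the background.

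Glucocorticoid-induced genes had 0 of 25 called in edgeR and 0 in DESeq2, at a median of -0.14, which was 0.06 without mouse 57. In the single responses, 11 of the 25 were higher after interaction in Ctrl_Veh (median 0.30; background 6.32%) and 4 in ELA_Veh (median 0.16; background 5.15%). Fkbp5, which encodes the chaperone partner FKBP51 of the glucocorticoid receptor, was 20.1, 20.9 and 23.6 CPM without and 22.4, 25.3 and 67.2 after interaction in Ctrl_Veh, and 19.8, 22.2 and 25.5 without and 25.2, 26.5 and 34.8 after it in ELA_Veh. In both conditions the mice after interaction lay higher with a small overlap, and the 67.2 was mouse 57, beside 26.9 in the next. The interaction was -0.31 ± 0.24 (SE, p of 0.215), and it was 0.06 without mouse 57.

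Tsc22d3 (GILZ; -0.06 ± 0.20), Sgk1 (0 ± 0.13), Per1 (0.13 ± 0.18) and Nr3c1, the glucocorticoid receptor (0.19 ± 0.11, p of 0.0917), all with SE, did not pass an unadjusted p of 0.05. The receptor and its HSP90 chaperones (18 tested, median -0.04) included the co-chaperone Bag1 among its lower members (-0.28), and heat shock and unfolded protein genes (30 tested, median -0.03) had 0. Crh (-0.06 ± 0.23) and its receptor Crhr1 (-0.06 ± 0.20), of the 4 tested genes of the corticotropin-releasing hormone system (0 called, median -0.03), and Oxtr (0.01 ± 0.17), of the 3 of the oxytocin and vasopressin system (0 called, median 0.11), gave no difference beyond their SE. Circadian clock genes had 2 higher, Nr1d2 (0.25, p of 0.0142) and Hlf (0.27, p of 0.0243), and 1 lower, Nfil3 (-0.39, p of 0.0357), of 21 (median 0.09). Together 14.3% of the clock list was called, beside 7.06% of all genes. Nr1d2 and Nfil3 encode repressors and Hlf an activator of clock output, and without mice 89 and 69 only Nr1d2 stayed under an unadjusted p of 0.05 (0.0497).

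Most other lists had shares near the background, and their called members are named. Neuropeptide precursors (26 tested, median -0.09) had Npy lower (-0.34), and receptors of serotonin, dopamine, noradrenaline and acetylcholine (39, median 0.12) had Chrm2 (0.37) and Chrna3 (1.34) higher. Endocannabinoid and opioid genes (11, median 0.03) and protein kinase C, PKA and CaM kinases (25, median 0.11) had 0. Synaptic vesicle and release genes (49, median 0.06) had Slc17a6 (0.43) and Syt14 (0.35) higher and Rab3b lower, postsynaptic scaffolds (26, median 0.11) had Dlgap1 higher (0.21), and chloride channels (24, median 0.12) had Ano8 higher (0.16). Among G protein subunits and RGS proteins (49, median -0.03), Gng4 (0.41) and Rgs17 (0.21) were higher and Gng8 (-1.01), Gng13 (-0.38), Rgs12 (-0.20) and Gng10 (-0.17) lower. Together this was 12.2% of that list, beside 7.06% of all genes. Among phosphodiesterases and adenylyl cyclases (30, median 0.10) Pde5a (0.36) and Adcy8 (0.29) were higher.

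Secreted signals and their receptors gave few calls. TGF-beta, activin and BMP genes (45, median 0.03) had Bmpr2 higher (0.25) and Gdf10 lower (-0.62), Wnt genes (42, median -0.01) had Wnt5a higher (0.37), and fibroblast growth factor genes (22, median 0.07) had Fgf12 higher (0.20). Cytokines, chemokines and receptors (106, median -0.04) had Il12a and Tnfaip8l3 higher and Ccl17, Il17rb, Tnfrsf1a and Tnfrsf9 lower. Interferon-stimulated genes (59, median -0.07) had Ifi203 higher and Gbp10 (-1.71), Ifi47 (-1.03), Irf5 (-0.40), Ifitm10 (-0.30) and Irf3 (-0.22) lower (8.47%, beside 3.91% of all genes). Class I antigen presentation (21, median 0.05) had H2-K1 lower (-0.40), class II (8, median -0.31) had H2-Ab1 lower (-1.03), Toll-like receptors and adaptors (19, median -0.12) had Myd88 lower (-0.27), and 27 genes with complement-type symbols, which also take in C1d and the unrelated C1ql and C2cd genes, had Cd59a lower (-0.32; median -0.17).

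Nuclear and structural lists also held few called members, with the largest share in DNA methylation genes (11.8%, beside 7.06% of all genes). Splicing factors (72, median 0.01) had Elavl4 (0.22), Celf2 (0.19) and Hnrnpa3 (0.10) higher and the small core proteins Snrpe (-0.37), Snrpg (-0.33) and Snrpd2 (-0.32) lower. DNA methylation genes (17, median 0.11) had Zbtb33 and Mbd6 higher, histone acetylases, deacetylases and methylases (65, median 0.05) had Kdm3b, Crebbp and Kat14 higher and Hdac1 lower, homeobox genes (52, median 0.13) had 0, and imprinted genes (24, median 0.10) had Grb10 higher (0.24). Tubulins and microtubule proteins (61, median -0.01) had Kif2a higher and Tuba1a and Tubb5 lower, actin cytoskeleton regulators (104, median -0.01) had Arpc1b, Rhoc, Actb and Rhoa lower, and cilium genes (83, median 0.05) had Cfap46, Cfap69 and Bbs1 higher and Tekt4, Cfap20 and Ift46 lower. Collagens (43, median -0.04) and perineuronal net genes (18, median 0.08) had 0, laminins and integrins (44, median 0.02) had Itga4 and Itga8 higher and Itgb5 lower, solute carriers (49, median 0) had Slc38a1 higher and Slc16a3 lower, and ABC transporters (40, median 0.02) had Abcg4 higher and Abcd4 lower.

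Several medians of lists with few calls rested on 1 mouse. Without mouse 89 they were -0.09 for complement-type genes, -0.03 for histones, 0 for neuropeptides and 0.04 for postsynaptic scaffolds, chloride channels, protein kinases and DNA methylation genes. Without mouse 61 they were 0.04 for homeobox genes and for phosphodiesterases and adenylyl cyclases, and -0.07 for imprinted genes. Toll-like receptors and adaptors were at -0.07 without mouse 37.

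Markers of cell types were examined because the punches hold glia and vessels as well as neurons. In such tissue, fewer cells of a type and less RNA per cell cannot be told apart. All 22 oligodendrocyte and myelin genes had an interaction below 0, with a median of -0.51 (-0.54 without mice 89 and 69), and 0 were called in edgeR and 0 in DESeq2. Their summed share was 0.268%, 0.334% and 0.598% without and 0.302%, 0.369% and 0.781% after interaction in Ctrl_Veh, and 0.1%, 0.462% and 0.937% without and 0.175%, 0.412% and 0.552% after it in ELA_Veh. The groups overlapped throughout. The median was -0.25 without mouse 37, which had the 0.937%, and -0.68 without mouse 99, which had the 0.1%, so the size of the difference rested on single ELA_Veh mice without interaction. With the myelin level as a covariate, 514 genes were higher (3.35%) and 666 lower (4.35%) in the interaction, together 7.7%, and 33 of the 81 ribosomal genes were lower (median -0.23).

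Microglia and macrophage markers had 1 lower of 22 (Tyrobp, -0.41; median -0.14), or 4.55% beside 3.91% of all genes. After interaction in ELA_Veh 6 of 22 were lower and 0 higher (median -0.11; background 3.62%). Their summed share was 0.0391% to 0.0426% in ELA_Veh without interaction and 0.0345% to 0.0383% after it, without overlap, beside 0.0355% to 0.0424% and 0.035% to 0.0461% in Ctrl_Veh. Taken singly, 0 of the 22 markers had ELA_Veh groups without overlap, beside 36 higher and 5 lower of all 15326 genes. In how many other lists the shares separated was not counted. Astrocyte markers had 3 lower of 18 (16.7%, beside 3.91% of all genes, with a median of -0.12): Clu (-0.22, p of 0.00881), a secreted chaperone, Ntsr2 (-0.26, p of 0.0189), a neurotensin receptor, and Gja1 (-0.14, p of 0.0464), a gap junction protein. Of these Clu kept an unadjusted p under 0.05 without mice 89 and 69 (p of 0.0225). Endothelial markers (18, median -0.14, and -0.05 without mouse 89) had Cldn5 lower (-0.31), and mural cell markers (13, median -0.17, and -0.07 without mouse 59) had Kcnj8 lower. Red cell genes (8, median -0.50) had Hbb-bs (-0.85), Hba-a1 (-0.76) and Bpgm (-0.23) lower, or 37.5% beside 3.91% of all genes. The summed share of red cell genes was 0.0912% in mouse 89, beside 0.0708% in mouse 57, the next of its group. In ELA_Veh without interaction that share was highest in mice 99 (0.081%) and 69 (0.0751%). Fibroblast and meningeal markers (20, median -0.45, but -0.17 without mouse 99 and -0.68 without mouse 93), choroid plexus and ependymal markers (11, median 0.07, and -0.49 without mouse 61) and oligodendrocyte precursor markers (12, median -0.07) had 0 called.

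Neuronal subtype markers had few calls. Cortical excitatory markers (14, median -0.01) and upper layer markers (14, median 0.01) had 0 called. Deep layer markers (18, median 0.07) had Etv1 (0.29), Parm1 (0.26) and Bcl6 (0.25) higher (16.7%, beside 3.14% of all genes), none of which kept an unadjusted p under 0.05 without mice 89 and 69. Interneuron markers (22, median -0.02) had Calb2 higher and Npy lower. Striatal markers (17, median 0.21) had Foxp1 higher (0.27) and septal and basal forebrain markers (12, median 0.26) had Trpc4 higher (0.44). Without mouse 61, whose striatal share was 0.212% beside 0.0739% in the next library of its group, the medians of these 2 lists were -0.67 and -0.42. Without mouse 37, whose striatal share was 0.143%, they were 0.79 and 0.35.

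Olfactory bulb and migrating neuroblast genes had 5 higher (29.4%, beside 3.14% of all genes) and 0 lower of 17 (median 0.34). Eomes, a transcription factor of mitral cells, was 0.0304, 0.112 and 4.44 CPM in Ctrl_Veh without interaction, the highest being mouse 81, and at most 0.316 after it. In ELA_Veh it was at most 0.319 CPM without interaction and reached 1.65 after it, in mouse 93. Each of the 2 extremes was 1 mouse, and the groups overlapped. Its interaction of 4.84 (p of 0.0038) was 3.28 without mouse 93 (p of 0.0514), and that of Ms4a15, 8.03 (p of 0.00261), had p of 0.894 without mouse 93, in whose group all other libraries had a count of 0. Cdhr1 (1.53), Doc2g (1.42) and Calb2 (0.65) had the same 2 mice at the top, and Dcx was at 0.34.

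The interaction varied with the length of the transcripts. Genes called in it had a median exonic length of 2424 bases when lower and 6844 when higher, beside 4403 over all genes tested and 1781 for the ribosomal genes. Among 10 groups of equal size, in the one with the shortest exonic length (median 1348 bases), 11.7% were lower and 0.849% higher, with a median interaction of -0.18. In the group with the longest (median 12451 bases), 0.327% were lower and 7.05% higher, with a median of 0.15. Without mice 89 and 69 the medians of these groups were -0.04 and 0.03. With each library's trend over exonic length taken out, 401 genes were higher (2.62%) and 451 lower (2.95%), together 5.56%, 22 of the 81 ribosomal genes were lower (median -0.12) and 6 of the 85 nuclear genes of oxidative phosphorylation.

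**Figure D5:**
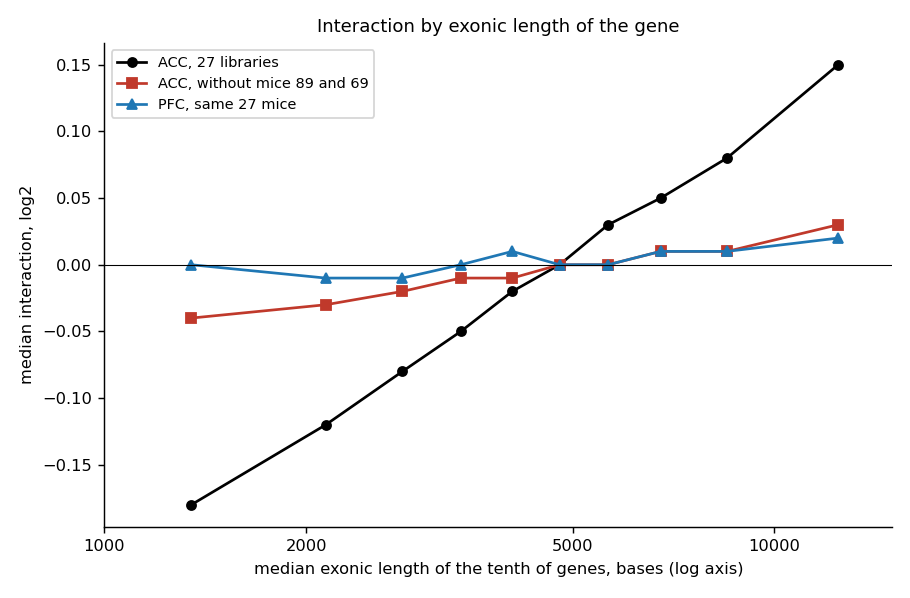
Median log2 interaction (vertical axis) of the tested genes in 10 groups of equal size by exonic length (horizontal axis, bases, log scale), for the ACC with 27 libraries, the ACC without mice 89 and 69, and the PFC of the same mice. The black line runs from -0.18 for the shortest to 0.15 for the longest genes, the red line from -0.04 to 0.03 and the blue line from 0 to 0.02.

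The medial prefrontal cortex (PFC in the labels) of the same 27 mice gave a second view of the encounter. There, the same interaction gave 528 higher and 315 lower of 15995 genes (3.3% and 1.97%, together 5.27%). Ribosomal protein genes had 0 of 82 called in edgeR at an unadjusted p under 0.05 and a median of 0.05, and nuclear genes of oxidative phosphorylation 0 of 86, with a median of -0.04. The difference between the regions was tested directly: 262 genes were higher (1.64%) and 542 lower (3.39%) in the ACC interaction than in the PFC interaction, together 5.03%, and with the mouse as a block 662 were higher (4.14%) and 818 lower (5.11%), together 9.25%, with 0 at an adjusted p under 0.05 in edgeR either way. Of 82 ribosomal protein genes 53 were lower in this difference (median -0.32) and 59 with the block (median -0.28). Of 86 oxidative phosphorylation genes 9 and 11 were lower. Both libraries of mice 89 and 69, ACC and PFC, were kept in these fits. Without them 190 genes were higher (1.19%) and 255 lower (1.59%) in the difference, together 2.78%, and with the block 559 (3.49%) and 606 (3.79%), together 7.28%, again with 0 at an adjusted p under 0.05 in edgeR. Of the 82 ribosomal protein genes 30 were then lower (median -0.14) and 49 with the block (median -0.15). Of the 86 oxidative phosphorylation genes 1 was lower (median -0.01), and with the block 2 were lower and 1 higher (median -0.02).

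In mice of the third condition, ELA_SAFit2, whose dams received SAFit2, the social response of the ribosomal genes in the ACC had 0 of 82 called (median -0.04) beside 8.59% of all genes (4.18% higher and 4.41% lower). The fit called 11 of 15722 genes at an adjusted p under 0.05 for this response (0.07%). With all 6 ACC groups in 1 fit, the interaction of ELA_Veh and Ctrl_Veh gave 795 higher (5.06%) and 1021 lower (6.49%) of 15722 genes, together 11.6%, and 62 of 82 ribosomal genes were lower. That contrast compares the same 27 libraries, mice 89 and 69 among them, so it is no independent result. The fit on the 4 groups without these mice had 14 of 81 ribosomal genes lower.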

How the data were processed

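The authors deposited estimated counts per gene, made with salmon as the table's name gives and not scaled to depth or length. The submitters' processing notes name GRCm39, STAR and DESeq2, and versions are not given in the sources used here. In the libraries used, 11.9% of the deposited values were not whole and all were rounded. Gene types came from GENCODE M21 (52073 of 56691 identifiers) or RefSeq symbols (978), while 3640 had no type and did not enter. Tests covered protein-coding genes whose counts summed to 100 or more over the libraries of a fit, with reads in 6 libraries or more. They used edgeR 4.0.16 (TMM, quasi-likelihood test, Benjamini-Hochberg adjustment over all genes) in R 4.3.3, on the 4 groups alone. Fold changes are log2, and p-values are unadjusted unless called adjusted. CPM are counts scaled to the TMM-normalized library size, and shares are percent of the counts of tested genes. Low genes carry a larger counting error.

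Alternatives were DESeq2 1.42.0, limma 3.58.1 (voom with quality weights), other filters, all gene types, all 6 ACC groups, a myelin covariate and leaving out each mouse. Offsets for exonic length and leaving out mice 89 and 69 together (in the fits of both regions too) were added after seeing the data. Scripts were tested on simulated data. ACC and PFC libraries carry the same mouse numbers, so the difference between regions was also fitted with the mouse as a block. Over the 1000 most variable genes the deviations of a mouse's 2 libraries correlated at a median of 0.327 (0.0134 to 0.656), over 0.1 in 25 of 27 mice, and 21 of 27 libraries matched their own mouse best.

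Members and gene lists were chosen with earlier results of these data known. Named genes are the 15 with the smallest interaction p in each direction, called members (at most 8) of lists with at least 10 tested genes and a called share at least 2 times the background, and 17 genes of activity, stress and social behaviour. No gene had an adjusted p under 0.05 to add. Some called list members are not reported here. Promoter sequences are from RefSeq. Python 3.11.15, pandas 2.3.3, NumPy 2.4.6 and Matplotlib 3.10.9 were used for tables and figures.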

Additional observations from a re-analysis of the deposited data

Results flagged for a closer look

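Values were compared within groups of 6 or 7 libraries for 47 genes and 9 lists, and a value is given here where the highest or lowest library stood apart from the rest of its group by Dixon's 95% limit. Of 224 groups, 34 held such a value. Chance gives about 1 in 20 groups, and genes and lists share libraries. Mouse 89 held 10 of the 34 and mouse 69 held 2. No explanation was tested.

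In mouse 89 (Ctrl_Veh after interaction), the shares of counts were 1.49% for ribosomal proteins (next library 0.917%), 1.28% for nuclear oxidative phosphorylation genes (0.815%) and 0.378% for proteasome subunits (0.281%). Its share was lowest for clustered protocadherins (0.0917%, next 0.109%) and for sodium and calcium channels (0.432%, next 0.519%). Mvd (20.6 CPM, next 16), Arhgdia (345 CPM, next 285) and Plrg1 (30.3 CPM, next 25.3) were highest in it, and Itga4 (5.59 CPM, next 10.8) and Suz12 (28.9 CPM, next 35.1) lowest. In mouse 69 (ELA_Veh without interaction), oxidative phosphorylation genes took 0.99% (next 0.858%) and proteasome subunits 0.317% (next 0.283%).

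Other Ctrl_Veh mice after interaction with such values were mouse 57, with the highest Fkbp5 (67.2 CPM, next 26.9) and the lowest Ifi203 (1.45 CPM, next 1.78), and mouse 17, with the lowest Junb (16.4 CPM, next 42.5) and the highest share of striatal markers (0.067%, next 0.0458%). In Ctrl_Veh without interaction they were mouse 41, with the lowest Plppr5 (50.4 CPM, next 53.3) and the highest Trhr2 (3.5 CPM, next 2.83) and Fosb (18.3 CPM, next 13.1), mouse 33, with the highest Nr3c1 (119 CPM, next 110), and mouse 1, with the lowest BC028528 (0.631 CPM, next 0.941) and the highest striatal share (0.0637%, next 0.0467%).

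In ELA_Veh without interaction, Trhr2 was highest in mouse 5 (3.62 CPM, next 2.4), Rab3b lowest in mouse 99 (35 CPM, next 50.4) and Per1 highest in mouse 99 (118 CPM, next 91.2). In ELA_Veh after interaction, mouse 61 had the highest shares of striatal markers (0.212%, next 0.0739%) and ribosomal proteins (0.97%, next 0.865%) and the lowest Mvd (11.4 CPM, next 13.2) and Mrnip (6.84 CPM, next 7.43). Ms4a15 was 1.22 CPM in mouse 93 and 0 in the others, Nudt1 was highest in mouse 53 (2.22 CPM, next 2.09), Arpc1b in another mouse of the group (11.9 CPM, next 9.22) and Sgk1 in mouse 59 (63.2 CPM, next 43), and Per1 was lowest in mouse 21 (65.8 CPM, next 90.1).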

How the results depend on the processing

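No alternative gave a gene at an adjusted p under 0.05 for the interaction. Counts of higher and lower genes at an unadjusted p under 0.05 were 795 and 1021 with all 6 ACC groups in the fit and 269 and 274 without mice 89 and 69. When each mouse was left out in turn, they lay between 304 (without mouse 69) and 683 and between 368 (without mouse 89) and 802, with 0 at an adjusted p under 0.05 throughout. Genes at an adjusted p under 0.05 for the social response in Ctrl_Veh were 18 with DESeq2, 9 with voom and 0 to 2 with 1 mouse left out (2 without mouse 59 and 1 without mouse 61). In ELA_Veh they were 14 with DESeq2, 5 with voom, 3 with 6 groups, 6 with length offsets, 8 without both mice and 0 to 7 with 1 left out (7 without mouse 89 and 1 without mouse 57). Unadjusted, the Ctrl_Veh response had 560 higher genes without both mice and 537 (without mouse 89) to 1249 with 1 left out, and 823 lower with 6 groups. The ELA_Veh response had 1303 higher genes with voom, 838 lower with 6 groups and 855 without both mice, and 575 to 1277 higher and 421 to 950 lower with 1 left out, the highest of both without mouse 89. With the mouse as a block, 662 genes were higher and 818 lower in the difference between ACC and PFC. Without both libraries of mice 89 and 69, 255 were lower in it, and 559 were higher with the block.

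Ribosomal members that were lower numbered 62 with 6 groups, 22 with length offsets, 14 without both mice and 17 to 63 with 1 left out. Oxidative phosphorylation members numbered 33, 6 and 5, with 10 in voom and 5 to 28 with 1 left out. Without both mice the medians were -0.07 for ribosomal proteins, -0.02 for nuclear oxidative phosphorylation genes, -0.03 for mitochondrial ribosomal proteins, proteasome, lysosome and endothelial genes, -0.01 for glycolysis and translation factors, 0.06 for sodium and calcium channels, 0.04 for axon guidance and 0.03 for protein kinases. In voom they were -0.05 for nuclear oxidative phosphorylation, mitochondrial ribosomal and proteasome genes, -0.03 for lysosome genes, -0.02 for glycolysis, 0 for endothelial genes and 0.04 for protein kinases, which DESeq2 gave as 0.05. With length offsets they were 0.05 for mitochondrially encoded genes, whose sign turned, -0.02 for postsynaptic scaffolds, 0.06 for cadherins and 0.04 for protein kinases. The myelin covariate gave 0.09 for interneurons. With 1 mouse left out the medians lay between -0.49 and 0.22 for choroid plexus, -0.16 and -0.05 for endothelial, -0.13 and -0.04 for glycolysis, -0.18 and -0.06 for proteasome, 0.04 and 0.13 for protein kinase, and -0.42 and 0.35 for septal genes.

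Among single genes, the sign turned in voom for Fos (0.09), Junb (0.14), Tsc22d3 (0.02), Oxtr (-0.11), Crh (0.15), Crhr1 (0.04) and Sgk1 (-0.01). With length offsets it turned for Crh (0.10), Crhr1 (0.02), Oxtr (0) and Sgk1 (-0.01), without both mice for Oxtr (-0.01) and Crh (0.12), with the myelin covariate for Oxtr (-0.02), and for Sgk1 with all gene types (-0.01), other filters or 6 groups (0). With 1 mouse left out the values lay between -0.43 and 0.11 for Fos, -0.21 and 0 for Fosb, -0.27 and 0.03 for Junb, -0.20 and 0.02 for Egr1, -0.41 and 0.12 for Arc, -0.07 and 0.31 for Npas4, -0.30 and 0.06 for Dusp1, -0.39 and 0.06 for Fkbp5, -0.10 and 0.06 for Sgk1, -0.14 and 0.17 for Tsc22d3, -0.09 and 0.07 for Oxtr, -0.15 and 0.12 for Crh, and -0.14 and 0.04 for Crhr1. None of these genes passed an unadjusted p of 0.05 with all libraries, and the causes were not tested. Of the values of named genes under alternatives other than leaving out 1 mouse, 934 kept direction and side of the threshold, 80 kept direction alone and 18 turned sign.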
